A study of Homo sapiens with 2 samples.

Results

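The genes described here encode 54 proteins that write, read, erase or reposition chromatin marks, and they were taken by symbol from a table of 60527 gene rows, in which each of the 54 symbols had 1 row. They cover 11 functional classes: histone methyltransferases for lysine 4 and lysine 36 of histone H3, acetyltransferases, subunits of the SWI/SNF remodeller, CHD remodellers, subunits of the NURF, INO80 and TIP60 complexes, BET readers, Polycomb repressive complex 2, deacetylases, demethylases and enzymes of DNA methylation. Total RNA was sequenced from 2 cultures of SK-MEL-2 by their labels, a line from a human melanoma, grown in MEM medium with fetal bovine serum. One culture was given DMSO, the solvent, and the other JNJ-7706621 at 1.75 µM, each for 48 h. JNJ-7706621 is an inhibitor of cyclin-dependent and Aurora kinases. Each group has 1 library, so the spread between cultures is unknown and no difference was tested.

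DNA in the nucleus is wrapped around histones, and the marks on histone tails and on DNA help to set which genes are read. Methyltransferases of the KMT2 and SETD1 families mark promoters and enhancers of active genes, SETD2 and the NSD enzymes mark transcribed gene bodies, and Polycomb repressive complex 2 marks silenced genes. SWI/SNF and CHD enzymes use ATP to slide or evict nucleosomes, and genes of SWI/SNF subunits are often mutated in cancers, melanoma included.

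Levels are FPKM, fragments scaled to exon length and to the library total. The exon length covers exons of all annotated transcripts of a gene, whether or not they are expressed here. Levels compared between genes, and ratios of such levels, therefore depend on the annotation as well, an error that counting intervals do not cover. Behind the levels stood library totals of 23377161 reads (DMSO) and 22817719 reads (JNJ-7706621). The chromatin genes rested on 95 to 5595 reads per gene and library, and ranges in parentheses after a ratio are exact 95% counting intervals, which cover counting error only. The melanoma label was checked against marker genes. The 7 melanocyte markers summed to 4.92 FPKM with DMSO and 6.25 FPKM with JNJ-7706621. Of these, MITF stood at 2.65 and 2.27 FPKM and PMEL at 2.00 and 3.71 FPKM, on 182 reads or more per library, and the other 5 had a mean of at most 0.195 FPKM. Among those 5, SOX10 stood at 0.0105 FPKM with DMSO and was listed at 0 with JNJ-7706621, and TYR was listed at 0 in both. A count of 0 allows up to 0.0425 FPKM of TYR in DMSO and 0.0436 FPKM in JNJ-7706621. The 5 epithelial markers summed to 1962 and 1979 FPKM. KRT18 stood at 1117 and 1123 FPKM and KRT8 at 720 and 703 FPKM. EPCAM stood at 55.7 and 59.4 FPKM, CDH1 at 49.8 and 67.8 FPKM and KRT19 at 19.2 and 26.7 FPKM. Epithelial markers thus stood far above melanocyte markers, so the marker genes did not bear out the melanoma label. The identity of the cells was not tested further. The 11 fibroblast, leukocyte and endothelial markers all had a mean under 1 FPKM. The leukocyte marker CD14 stood at 0.675 and 1.25 FPKM.

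Upstream sequences of 4 of the genes are shown first, a pair that was lower and a pair that was higher in the JNJ-7706621 library. Each is the 250 bases before the RefSeq start (build GRCh38.p14), 5′ to 3′ on the strand of the gene, with capitals for the GC box GGGCGG of Sp1 factors and the CCAAT box, each on either strand and overlaps included.
KMT2E (chr7:105013955-105014204, plus strand): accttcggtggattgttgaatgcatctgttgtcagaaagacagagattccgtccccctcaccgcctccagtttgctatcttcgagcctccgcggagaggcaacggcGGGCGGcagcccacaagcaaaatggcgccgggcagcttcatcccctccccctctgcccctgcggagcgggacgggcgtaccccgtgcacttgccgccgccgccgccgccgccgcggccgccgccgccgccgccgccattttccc
EZH2 (chr7:148884292-148884541, minus strand): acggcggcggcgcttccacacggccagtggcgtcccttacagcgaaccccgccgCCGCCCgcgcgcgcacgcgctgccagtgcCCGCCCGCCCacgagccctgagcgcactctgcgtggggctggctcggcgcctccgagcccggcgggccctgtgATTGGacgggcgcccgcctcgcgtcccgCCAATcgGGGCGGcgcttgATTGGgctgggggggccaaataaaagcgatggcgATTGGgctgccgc
HDAC3 (chr5:141636850-141637099, minus strand): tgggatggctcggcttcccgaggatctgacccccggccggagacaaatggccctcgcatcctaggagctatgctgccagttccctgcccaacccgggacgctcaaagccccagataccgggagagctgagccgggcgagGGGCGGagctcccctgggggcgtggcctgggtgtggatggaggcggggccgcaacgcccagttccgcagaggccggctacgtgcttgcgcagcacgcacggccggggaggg
HDAC1 (chr1:32291833-32292082, plus strand): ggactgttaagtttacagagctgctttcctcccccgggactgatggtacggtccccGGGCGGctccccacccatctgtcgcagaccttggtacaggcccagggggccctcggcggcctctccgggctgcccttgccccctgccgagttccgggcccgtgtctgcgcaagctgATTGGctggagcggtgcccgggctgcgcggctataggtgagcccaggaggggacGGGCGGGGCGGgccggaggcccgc

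The EZH2 window held 4 GC boxes and 4 CCAAT boxes, the HDAC1 window 3 and 1, and the KMT2E and HDAC3 windows 1 GC box and 0 CCAAT boxes each. A promoter entry was matched for 44 of the 54 genes. Their windows had a median of 68.8% GC and 23.5 CG dinucleotides, against 61.2% and 16 over 17389 promoters. The GC box stood in 30 of the 44 windows (68.2%), against 52.6% of all promoters, and the TATA box TATAAA in 0 of 44, against 9.58%. The NRF1 core GCATGCGC was found in 2 of 44 (4.55%), against 3.56%, the CCAAT box in 12 (27.3%), against 34.2%, and the ETS motif CCGGAAG in 3 (6.82%), against 10.9%. The E2F motifs TTTGGCGC and TTTCCCGC stood in 0 and 2 windows (0.667% and 1.81% of all promoters), and the YY1 motif AAGATGGC in 0 (1.40%). The matched chromatin genes thus mostly had GC-rich and CG-rich windows. A match of letters is not a measured binding site.

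Chromatin genes were compared between the cultures to see how mRNAs of the chromatin machinery stood after kinase inhibition. Most were somewhat lower in the JNJ-7706621 library, few by a large factor. In a bulk culture, fewer cells of a state and less RNA per cell cannot be told apart. The log2 difference of a gene is log2(FPKM + 1) in JNJ-7706621 minus that in DMSO, taken over genes with a mean of at least 1 FPKM, which 47 of the 54 passed. It understates the difference of low genes. Of the 47, 33 were below 0, while 50.4% of all 13241 genes tested were, and 14 were above 0, against 49.6%. Their median was -0.26, against -0.0032 for all genes tested and 0.00069 for the 10167 protein-coding ones. On this scale no member of the 47 passed a 2-fold rule of size, which 1.36% of all genes passed as lower and 2.39% as higher. At 1.5-fold 1 was lower (KMT2E) and 0 were higher, against 6.77% and 8.53%, so on this scale the share past this size was smaller than the background on both sides. On the lower side that order turned with a smaller pseudocount: 8 of 47 were 1.5-fold lower with 0.1, against 11.1% of all genes, and 5 of 47 with 0.5, against 8.87%.

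By the plain FPKM ratio, a rule added after the data were seen, 9 of the 47 (19.1%) were at least 1.5-fold lower and 1 (2.13%) was at least 1.5-fold higher, where 11.6% and 12.3% of 13108 genes with recovered reads were. By this rule the share was above the background on the lower side and below it on the higher side. The counting interval lay below a ratio of 1 for 30 of the 47 and above it for 8, against 33.2% and 32.8% of those genes. These chromatin genes had a median of 1186 reads in DMSO, against 578 for all genes tested, which narrows their intervals. Reads of all 54 made up 0.318% of the DMSO total and 0.276% of the JNJ-7706621 total. Above a mean of 5 FPKM, 12 of 21 were below 0, against 48.3% of all genes above that level, and their median was -0.03. By the plain ratio 3.56% of all genes tested were 2-fold lower and 4.74% were 2-fold higher. Of the 47, KMT2E was past 2-fold lower at 0.407, and the highest, DNMT3B at 1.78, was short of 2-fold. KAT6B and TET2, under the filter, had ratios of 0.281 and 0.406.

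**Figure D1:**
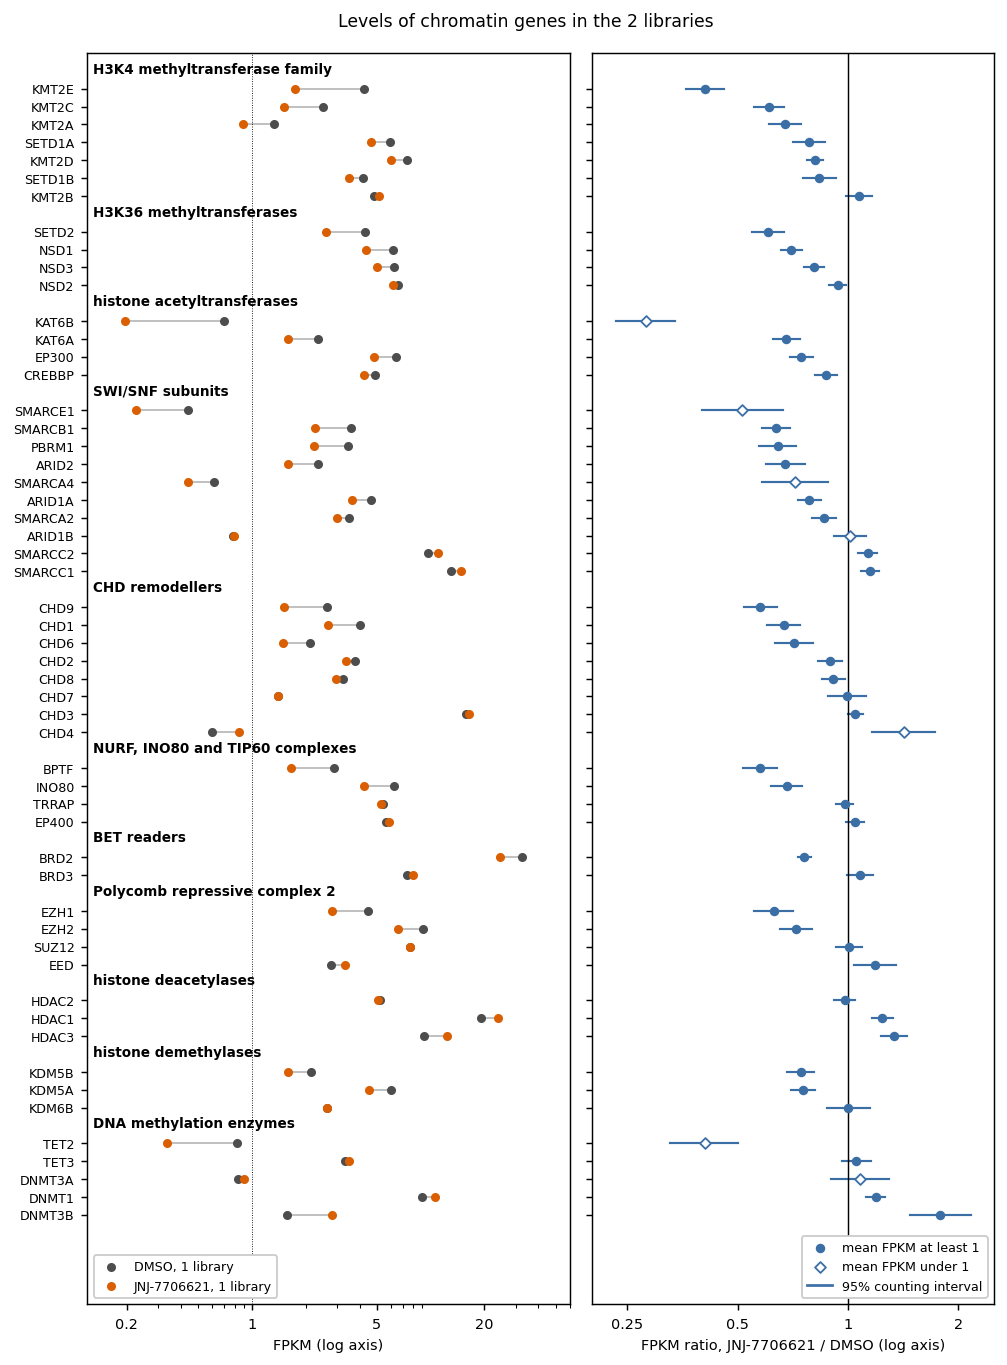
FPKM of the 54 chromatin genes in the DMSO library and the JNJ-7706621 library (left, log axis, dotted line at 1 FPKM) and their FPKM ratio with its 95% counting interval (right, log axis), by class. Most points of the right panel lie left of 1, with KAT6B lowest at 0.281, while HDAC1, HDAC3, DNMT1 and DNMT3B lie right of it.

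**Figure D2:**
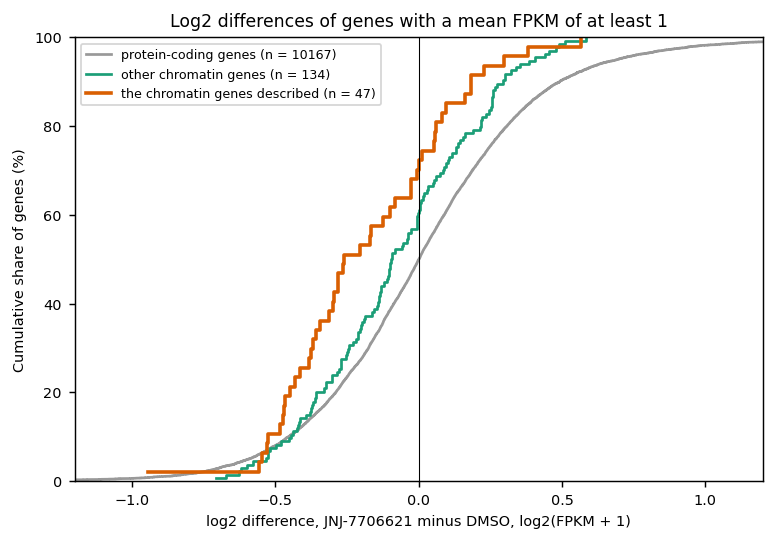
Cumulative share of genes (percent) by log2 difference of log2(FPKM + 1), JNJ-7706621 minus DMSO, for the 47 chromatin genes, 134 other chromatin genes and 10167 protein-coding genes with a mean of at least 1 FPKM (differences beyond 1.2 in size are not drawn). Across the middle of the range the curve of the 47 lies left of the others, with a median of -0.26 against -0.09 and 0.00069.

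In the family of enzymes for lysine 4 of histone H3, 6 of 7 members were below 0, with a median of -0.30. KMT2E, which reads this mark and regulates the cell cycle and blood formation, stood at 4.26 FPKM with DMSO and 1.74 FPKM with JNJ-7706621, on 991 and 394 reads. Its ratio of 0.407 (0.362 to 0.458) and log2 difference of -0.94 made it the lowest of the 47. KMT2C, an enhancer methyltransferase, stood at 2.49 and 1.51 FPKM, giving a ratio of 0.607 (0.552 to 0.668). Its paralogue KMT2D, at 7.41 and 6.00 FPKM, had a ratio of 0.810 (0.771 to 0.852), closer to 1 than that of KMT2C. KMT2A, the gene rearranged in mixed-lineage leukaemia, stood at 1.33 and 0.893 FPKM, with 18.9% of its exon length in exons of other genes. SETD1A and SETD1B, catalytic subunits of the COMPASS complexes, had ratios of 0.783 (0.707 to 0.867) and 0.835 (0.753 to 0.926). KMT2B was the 1 member above 0, at 4.83 and 5.17 FPKM, and its interval of 0.986 to 1.16 included 1.

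KMT2E lies at 105014179 to 105114361 on the plus strand of chromosome 7, and KMT2E-AS1, an antisense gene on the minus strand, shares 143 bases with it at their 5′ ends. KMT2E-AS1 stood at 4.30 FPKM with DMSO and 0.774 FPKM with JNJ-7706621, giving a ratio of 0.18 (0.0916 to 0.327) on 74 and 13 reads. Both genes of this head-to-head pair were therefore lower in JNJ-7706621, and the KMT2E window printed above lies within the bounds of KMT2E-AS1. Of the exon length of KMT2E-AS1 19.4% is shared with other genes, and of that of KMT2E 3.10%. Whether the authors counted by strand is not given in the sources used here, so reads of overlapping genes on opposite strands cannot be told apart. KMT2E-AS1 was singled out after its values were seen.

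All 4 enzymes for lysine 36 of histone H3 were below 0, with a median of -0.35. SETD2, which sets the trimethyl mark behind elongating RNA polymerase II, stood at 4.28 FPKM with DMSO and 2.59 FPKM with JNJ-7706621, giving a ratio of 0.605 (0.545 to 0.670). NSD1, a dimethyltransferase, stood at 6.18 and 4.32 FPKM, giving a ratio of 0.700 (0.655 to 0.747). NSD3 had a ratio of 0.808 (0.758 to 0.861), and NSD2, at 6.53 and 6.12 FPKM, the one nearest 1 at 0.937 (0.889 to 0.987). The intervals of all 4 lay below 1.

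The acetyltransferases were lower too, with all 3 that passed the filter below 0. EP300 and CREBBP, the coactivators p300 and CBP, stood at 6.44 and 4.91 FPKM with DMSO and at 4.80 and 4.26 FPKM with JNJ-7706621. EP300 had a ratio of 0.746 (0.693 to 0.802) and CREBBP of 0.868 (0.810 to 0.931). KAT6A, which acetylates histone H3 in a complex with BRPF proteins, stood at 2.35 and 1.59 FPKM, giving a ratio of 0.678 (0.622 to 0.739). Its paralogue KAT6B had the lowest ratio of all 54 genes, 0.281 (0.232 to 0.338), at 0.696 and 0.196 FPKM. It rested on 529 and 145 reads spread over 32495 bases of exon, and its mean was under the filter.

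SWI/SNF is a remodelling complex built around 1 of the ATPases SMARCA2 and SMARCA4, with core subunits and accessory ARID or PBRM1 subunits that give its subtypes. Of 7 subunits that passed the filter 5 were below 0 and 2 above. The core subunit SMARCB1 stood at 3.56 FPKM with DMSO and 2.27 FPKM with JNJ-7706621, giving a ratio of 0.636 (0.583 to 0.693), and 17.7% of its exon length overlaps exons of other genes. PBRM1 and ARID2, which define the PBAF form, had ratios of 0.642 (0.572 to 0.720) and 0.673 (0.595 to 0.761). ARID1A, which defines the BAF form, stood at 4.65 and 3.65 FPKM, giving a ratio of 0.784 (0.730 to 0.843), while its paralogue ARID1B stood at 0.783 and 0.792 FPKM, with an interval of 0.916 to 1.12. The scaffold subunits SMARCC1 and SMARCC2 went the other way, at 12.9 and 9.69 FPKM with DMSO and 14.8 and 11.0 FPKM with JNJ-7706621. Their ratios of 1.15 (1.08 to 1.21) and 1.13 (1.06 to 1.2) were alike. The summed level of the 10 subunits was 42.0 FPKM with DMSO and 39.9 FPKM with JNJ-7706621.

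SMARCA4, the ATPase also called BRG1, was low in both libraries, at 0.615 FPKM with DMSO and 0.442 FPKM with JNJ-7706621 on 227 and 159 reads. SMARCA2, its paralogue, stood at 3.49 and 3.00 FPKM, so its level was 5.68 (4.94 to 6.56) times that of SMARCA4 in DMSO and 6.78 (5.75 to 8.05) times in JNJ-7706621. Of the exon length of SMARCA4 0.63% is shared with other genes. The subunit SMARCE1 was also low, at 0.438 and 0.225 FPKM, but 19.8% of its exon length overlaps other genes. One of these is AC073508.2, a protein-coding gene on the same strand at 0.714 and 0.626 FPKM, which has its whole exon length within exons of other genes. The antisense gene AC073508.3 overlaps the bounds of SMARCE1 at its 5′ end and stood at 5.52 and 3.03 FPKM. Its ratio of 0.549 (0.425 to 0.705), on 183 and 98 reads, was on the same side of 1 as that of SMARCE1. How reads in shared exons were assigned is not given in the sources used here, so the level of SMARCE1 is uncertain.

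Of 7 CHD remodellers that passed the filter 6 were below 0, with a median of -0.13. CHD9 stood at 2.62 FPKM with DMSO and 1.51 FPKM with JNJ-7706621, giving a ratio of 0.576 (0.519 to 0.639). CHD1, which binds methylated lysine 4 and works at transcribed genes, stood at 4.00 and 2.67 FPKM, giving a ratio of 0.667 (0.602 to 0.737). CHD6 had a ratio of 0.713 (0.633 to 0.802). CHD2 and CHD8 lay closer to 1, at 0.894 (0.830 to 0.964) and 0.911 (0.847 to 0.979). CHD7, the gene mutated in CHARGE syndrome, stood at 1.40 and 1.39 FPKM. CHD3, a subunit of the NuRD repressor complex, was the highest CHD gene, at 15.7 and 16.4 FPKM with a ratio of 1.05 (1.00 to 1.09).

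CHD4, the other main NuRD ATPase, stood at 0.596 FPKM with DMSO and 0.845 FPKM with JNJ-7706621, giving a ratio of 1.42 (1.16 to 1.73) on 177 and 245 reads. Its mean was under the filter, and 53.5% of its exon length is shared with other genes. One is AC006064.6, a protein-coding gene on the same strand whose exons all overlap other genes. It is listed at 0 in both libraries. A count of 0 allows up to 0.0151 and 0.0154 FPKM only if reads in shared exons were counted for it. Whether they were is not given in the sources used here, so this 0 does not bound its level. Another is the antisense gene AC006064.2, at 8.55 and 13.8 FPKM, whose ratio of 1.61 (1.43 to 1.82) was on the same side of 1 as that of CHD4. The level of CHD4 is therefore uncertain in these files. The neighbours of CHD4 and SMARCE1 were singled out after their values were seen.

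Among subunits of other remodellers, BPTF, the reader subunit of NURF, stood at 2.88 FPKM with DMSO and 1.66 FPKM with JNJ-7706621, giving a ratio of 0.575 (0.518 to 0.638). INO80, the ATPase of the complex of that name, stood at 6.26 and 4.26 FPKM, giving a ratio of 0.680 (0.616 to 0.751). INO80-AS1, on the opposite strand within the bounds of INO80, stood at 4.03 and 1.54 FPKM, giving a ratio of 0.382 (0.231 to 0.613) on 67 and 25 reads, and was singled out after its values were seen. TRRAP and EP400, large subunits of the TIP60 acetyltransferase complex, stayed near their DMSO level. TRRAP stood at 5.43 and 5.31 FPKM and EP400 at 5.62 and 5.87 FPKM, and the intervals of both, 0.924 to 1.03 and 0.986 to 1.10, included 1.

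BRD2, a BET protein that reads acetylated histones, had the highest level of the 54 genes, 32.3 FPKM with DMSO and 24.5 FPKM with JNJ-7706621. Its ratio was 0.759 (0.729 to 0.790), with 11.9% of its exon length in exons of other genes. BRD3 stood at 7.37 and 7.93 FPKM, and its interval of 0.993 to 1.17 included 1. Of its exon length 18.6% lies in exons of other genes. The level of BRD2 was 4.39 (4.12 to 4.68) times that of BRD3 in DMSO and 3.09 (2.90 to 3.30) times in JNJ-7706621.

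Polycomb repressive complex 2 was split between its catalytic and its other core subunits. EZH2, the main methyltransferase for lysine 27 of histone H3, stood at 9.05 FPKM with DMSO and 6.54 FPKM with JNJ-7706621, giving a ratio of 0.723 (0.654 to 0.798). EZH1, the alternative enzyme of non-dividing cells, stood at 4.46 and 2.79 FPKM, giving a ratio of 0.626 (0.555 to 0.706). SUZ12 stood at 7.64 and 7.70 FPKM with an interval of 0.928 to 1.09. EED, which binds the mark and stimulates the enzyme, stood at 2.78 and 3.30 FPKM, giving a ratio of 1.18 (1.04 to 1.35). Both enzymes were thus lower in JNJ-7706621 while the intervals of the other core subunits included or lay above 1. The level of EZH2 relative to EZH1 was 2.03 (1.84 to 2.24) in DMSO and 2.34 (2.08 to 2.65) in JNJ-7706621, intervals that overlap.

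Of the 47 that passed the filter 8 had an interval above 1, as did CHD4 under the filter. Among the 8, HDAC1, HDAC3, DNMT1 and DNMT3B were deacetylases or DNA methyltransferases. SMARCC1, SMARCC2, CHD3 and EED belonged to classes described above. HDAC3, the enzyme of the NCOR repressor complexes, stood at 9.23 FPKM with DMSO and 12.3 FPKM with JNJ-7706621, giving a ratio of 1.33 (1.23 to 1.45). HDAC1, shared by the NuRD, SIN3 and CoREST complexes, stood at 19.1 and 23.7 FPKM, giving a ratio of 1.24 (1.16 to 1.32). HDAC2, its paralogue, stood at 5.22 and 5.10 FPKM, with an interval of 0.916 to 1.04. The summed level of the 3 deacetylases was 33.5 FPKM with DMSO and 41.1 FPKM with JNJ-7706621. Of 13 further deacetylases and corepressors, listed among the other chromatin genes, 8 were below 0, with a median of -0.11.

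DNMT3B, which sets new DNA methylation, stood at 1.57 FPKM with DMSO and 2.80 FPKM with JNJ-7706621 on 170 and 296 reads. Its ratio of 1.78 (1.47 to 2.17) and log2 difference of 0.56 were the highest of the 47. DNMT1, which copies methylation after replication, stood at 8.90 and 10.6 FPKM, giving a ratio of 1.19 (1.12 to 1.26). DNMT3A, under the filter, stood at 0.836 and 0.901 FPKM with an interval of 0.897 to 1.29. The TET enzymes, which oxidise methylated cytosine, differed from each other. TET2, under the filter, stood at 0.826 and 0.335 FPKM, giving a ratio of 0.406 (0.328 to 0.50), and TET3 at 3.31 and 3.48 FPKM, with an interval of 0.961 to 1.15. The level of TET3 was 4.01 (3.53 to 4.57) times that of TET2 in DMSO and 10.4 (8.62 to 12.6) times in JNJ-7706621, so these intervals did not overlap.

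The demethylases KDM5A and KDM5B, which remove methyl groups from lysine 4, had ratios of 0.753 (0.699 to 0.810) and 0.742 (0.681 to 0.807). KDM5A stood at 5.97 FPKM with DMSO and 4.50 FPKM with JNJ-7706621 and KDM5B at 2.15 and 1.60 FPKM. KDM6B, which acts on lysine 27, stood at 2.62 FPKM in both, with an interval of 0.875 to 1.15. KDM5A and KDM5B were thus lower in the same library as 6 of the 7 members of the lysine 4 methyltransferase family. Other demethylases, listed among the other chromatin genes, did not all go this way. KDM1A had a ratio of 1.18 (1.10 to 1.25), KDM5C of 0.972 (0.909 to 1.04) and KDM1B of 0.762 (0.678 to 0.856).

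**Figure D3:**
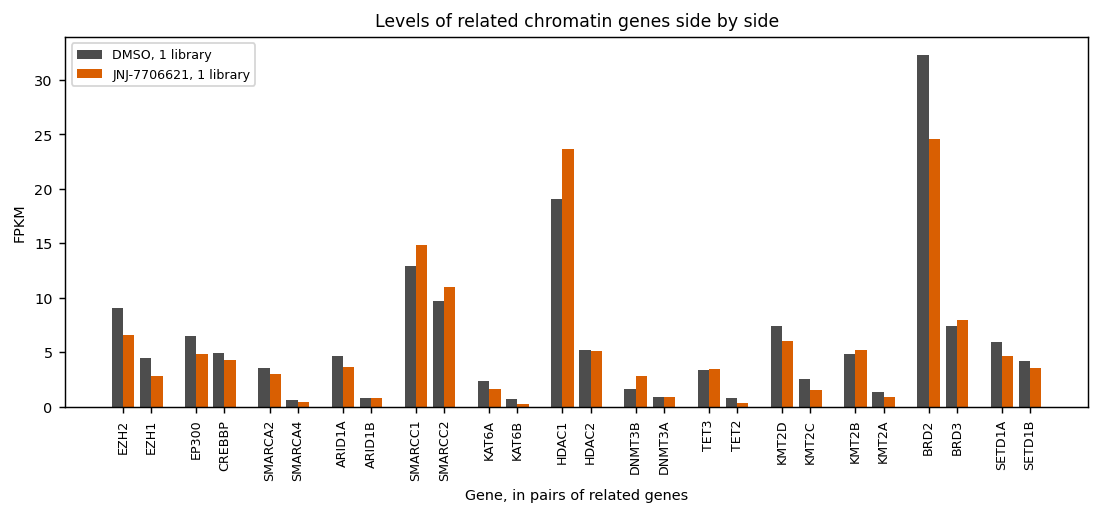
FPKM of 13 pairs of related chromatin genes, with 1 bar for the DMSO library and 1 for the JNJ-7706621 library. BRD2 and HDAC1 stand highest, and KAT6B, SMARCA4, ARID1B, DNMT3A and TET2 are under 1 FPKM in both libraries.

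The 7 genes under the filter were KAT6B, ARID1B, SMARCA4, SMARCE1, CHD4, DNMT3A and TET2. Over all 54, with no filter, the median log2 difference was -0.22 and 37 were below 0, against a median of 0.0074 and 46.4% of the 28711 genes above 0 FPKM.

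Many chromatin genes have long transcripts, and the log2 difference varied with exon length over the whole library. The median exon length of the 47 was 12029 bases, against 5090 for protein-coding genes tested. Of 18 members under 10000 bases 8 were below 0, with a median of 0.0058, against 48.3% of 9042 protein-coding genes and a median of 0.013. Of 29 members of at least 10000 bases 25 were below 0, with a median of -0.28, against 63.0% of 1120 protein-coding genes and a median of -0.11. The lower values thus lay mostly among the longer members, with KMT2E at 9949 bases, EZH1 at 6988 and EZH2 at 4522 among the shorter ones that were lower. After a trend with exon length and GC content over all genes was taken off, 31 of the 47 were below 0, with a median of -0.19, against -0.02 for all genes. The length bounds were chosen after the values were seen.

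**Figure D4:**
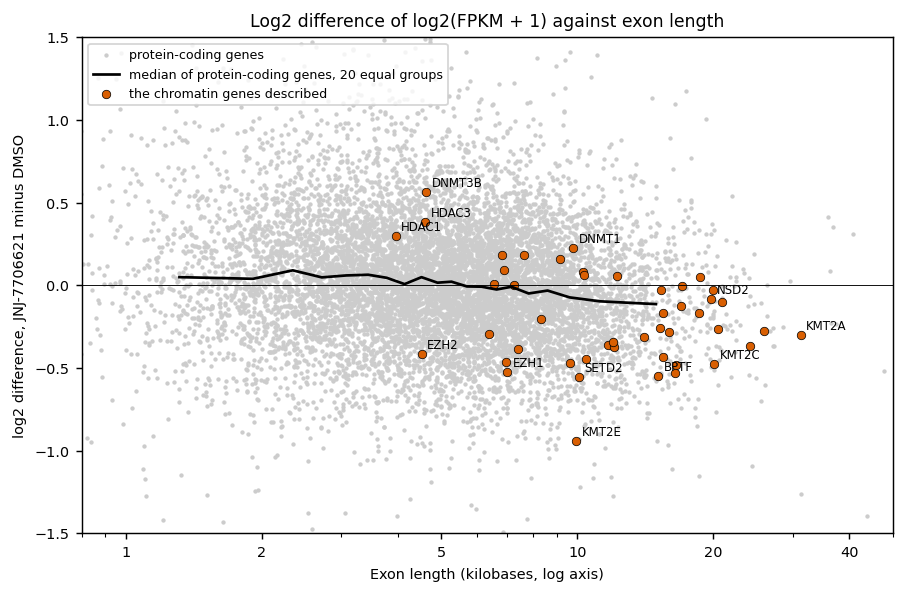
Log2 difference of log2(FPKM + 1), JNJ-7706621 minus DMSO, against exon length (kilobases, log axis) for protein-coding genes with a mean of at least 1 FPKM, their median in 20 groups of equal size, and the 47 chromatin genes (differences beyond 1.5 in size are not drawn). The black median line falls slightly with length, and most chromatin genes beyond 10 kilobases lie below it.

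Base composition and gene span went with the values of the members as well. Of 28 members with less than 52% GC in their longest transcript 24 were below 0, against 51.1% of all genes tested in that range, and of 19 with at least 52% 9 were, against 49.2%. Medians were -0.38 for the 15 members under 45% GC, -0.30 for the 13 from 45% to 52% and 0.0015 for the 19 above that. Protein-coding genes in these ranges had medians of -0.07, 0.098 and 0.01, so in the middle range they lay on the other side of 0 from the members. Of 14 members spanning under 50000 bases of genome 5 were below 0, against 48.2% of all genes of that span, and of the 33 longer ones 28 were, against 55.7%. Across the 47 members Spearman's rho with the log2 difference was -0.24 for exon length, -0.37 for span, 0.33 for GC content and 0.41 for mean FPKM. Over protein-coding genes these were -0.14, -0.08, 0.11 and 0.07. All of these genes share the same pair of libraries. How far length, span, GC content and level go together among them was not computed. Which of these goes with the differences by itself was not tested.

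Another 155 chromatin genes, partners and relatives of those above, were listed by the same classes, and 134 passed the filter. Of the 134, 81 (60.4%) were below 0, against 50.4% of all genes tested, and the median was -0.09. At 1.5-fold 5 (3.73%) were lower and 0 higher, against 6.77% and 8.53%, so both shares were under the background. By the plain FPKM ratio, which is not drawn towards 1 by the pseudocount, 14 (10.4%) were at least 1.5-fold lower and 4 (2.99%) at least 1.5-fold higher, against 11.6% and 12.3%. The 5 included ASH1L, NCOR1, EPC2 and CBX8. ASH1L, a large histone methyltransferase, stood at 4.14 FPKM with DMSO and 2.22 FPKM with JNJ-7706621, giving a ratio of 0.537 (0.489 to 0.590). NCOR1, the corepressor that activates HDAC3, stood at 7.89 and 4.75 FPKM, giving a ratio of 0.602 (0.567 to 0.640), opposite to HDAC3 itself. EPC2 and CBX8 had ratios of 0.497 (0.406 to 0.607) and 0.561 (0.466 to 0.674).

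The other end of the 134 held UHRF1, which brings DNMT1 to newly replicated DNA, at 6.34 FPKM with DMSO and 10.01 FPKM with JNJ-7706621. Its ratio of 1.58 (1.44 to 1.73) was on the same side of 1 as that of DNMT1. GATAD2A and GATAD2B, which link the parts of NuRD, had ratios of 1.502 (1.38 to 1.63) and 1.504 (1.35 to 1.67). These and UHRF1 were, with CBX6, the 4 past 1.5-fold by the plain ratio. CBX6, a Polycomb protein, and KMT5A, the methyltransferase for lysine 20 of histone H4, had ratios of 1.52 (1.37 to 1.67) and 1.43 (1.33 to 1.55). By class, 8 of 10 further genes listed with the lysine 4 methyltransferase family were below 0, with a median of -0.15. So were 9 of 12 other histone methyltransferases, with a median of -0.03. The same held for 5 of 6 genes of DNA methylation (median -0.16) and 3 of 3 listed with the BET readers (median -0.28). These are counts of direction only, and some of these genes, such as EHMT1, PRMT1 and BRD8, had intervals that included 1. The counts were 9 of 15 for the NURF, INO80 and TIP60 complexes, 8 of 13 each for genes listed with the deacetylases and with the demethylases, 7 of 12 for SWI/SNF and 14 of 25 for Polycomb genes. Under the share of all genes below 0, 50.4%, were acetyltransferases and their partners (6 of 13), partners of the CHD enzymes (3 of 9) and genes listed with the lysine 36 methyltransferases (1 of 3).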

How the data were processed

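Values are FPKM per gene as the authors deposited them, next to Ensembl identifiers and gene symbols. The build hg38 and edgeR, without version or role, come from the submitters' processing notes. Neither aligner nor counter nor use of strand is given in the sources used here. Of the 4 columns of values, 2 matched the labels of the samples studied, and the other 2 were not used.

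Library totals and reads were recovered from the deposited FPKM values with exon lengths of GENCODE release 29 (GRCh38), because the product of FPKM, length and total must be a whole read number. Where the annotated length failed, the nearest length within 0.25 to 4 times it was taken that made both libraries whole to 0.0001 reads. This gave reads for 27805 of 28014 genes above 0, all 54 chromatin genes included, 28 of them at the annotated length. No test was run, because each group has 1 library. Counting intervals of FPKM ratios are exact (Clopper-Pearson), given the summed reads, and since PCR reads carry no molecular identifiers they cover counting error only. Log2 differences used a pseudocount of 1 and genes with a mean of at least 1 FPKM. The trend was a quadratic surface on log2 exon length and GC percent over all genes tested.

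Members and lists were chosen with earlier results of these data known. Named were the 15 lowest and 8 highest members that passed the filter, the extremes of each class, 10 fixed genes and the 5 lowest and 5 highest other chromatin genes. Further members were named to account for all. The result of 1 gene under this rule is not reported here. Alternatives were pseudocounts of 0.1 and 0.5, no filter or one at 5 FPKM, rescaling to a sum of 1000000, centring on the median of all genes, and the trend. Calculations were tested on simulated data with Python 3.11.15, numpy 2.4.6, pandas 2.3.3 and scipy 1.17.1.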

Additional observations from a re-analysis of the deposited data

How the results depend on the processing

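No paired analysis was possible because each group has 1 library. The median of the members was -0.26 and moved to -0.028 with a filter at a mean of 5 FPKM, where 12 of 21 were below 0 in place of 33 of 47. The count of members 1.5-fold lower, 1 of 47 as reported against 6.77% of all genes, was 8 of 47 with a pseudocount of 0.1 (against 11.1%), 5 of 47 with 0.5 (8.87%), 9 of 47 by the plain ratio (11.6%) and 0 of 21 with a filter at 5 FPKM (5.85%). After rescaling to a sum of 1000000 it was 8 of 53 (10.6%). Rescaling raises the values, so 53 members in place of 47 passed the filter, and 6 of the 8 were among the 47. The share of members thus lay under that of all genes as reported and above it with either smaller pseudocount, after rescaling and by the plain ratio. The count 1.5-fold higher, 0 as reported, was 1 under these 4 settings, against 11.8%, 10.1%, 11.5% and 12.3% of all genes in that order. The count 2-fold lower, also 0, was 1 with pseudocounts of 0.1 and 0.5 and after rescaling, against 3.09%, 2.07% and 2.99%. For the other chromatin genes, 5 of 134 were lower at 1.5-fold. With a pseudocount of 0.1 it was 12 of 134 (against 11.1% of all genes) and after rescaling 11 of 141 (10.6%). By the plain ratio it was 14 of 134 (11.6%) and with a filter at 5 FPKM 2 of 69 (5.85%). Their 0 of 134 higher became 2 of 134 with a pseudocount of 0.1 (11.8%) and 1 of 134 with 0.5 (10.1%). With no filter it was 1 of 152 (5.83%) and after rescaling 2 of 141 (11.5%). After centring on the median of all genes it was 1 of 134 (8.64%) and by the plain ratio 4 of 134 (12.3%). A smaller pseudocount weighs low genes more by construction. Without members that have over 10% of their exon length in exons of other genes, chosen after seeing the data, 29 of 42 were below 0. HDAC2 turned from -0.03 to 0.14 with the trend taken off and KDM6B from 0.0015 to -0.01 after rescaling. Of 34 named members that passed the filter, some shifted in log2 difference by more than 0.5 of the width of their counting interval (log2 scale). These were 6 with a pseudocount of 0.1, 3 with the trend taken off and 1 after rescaling. Depth limits the genes with few reads most: SMARCE1, on 189 and 95 reads, has an interval of 0.398 to 0.662.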
